A study of Mus musculus with 23 samples.

Results

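The adenylyl cyclases Adcy1 to Adcy9 are the 9 membrane-bound enzymes that make cyclic AMP (cAMP) from ATP. They were chosen by gene symbol and matched to the Ensembl identifiers of the count table, and all 9 were found among its 45706 genes. All 9 also passed the filter on low counts, which left 18823 genes for testing. Polyadenylated RNA of the mouse hippocampus had been sequenced in 23 libraries from 3 neuronal populations. Their names in the titles were CamK and Grik, both labelled as pyramidal excitatory cells, and SST, labelled as interneurons that express somatostatin. The study's design text speaks of CA1, CA3 and somatostatin-positive inhibitory populations. Each population was taken from wild-type animals (WT) and from conditional knockouts (cKO) of Slm2, an RNA-binding splicing regulator whose gene is Khdrbs3. There were 4 CamK WT, 3 CamK cKO, 4 Grik WT, 4 Grik cKO, 4 SST WT and 4 SST cKO libraries. Ages, strains, the Cre lines behind each population and cKO, and the way the cells or their RNA were isolated are not stated in the labels. The labels do not say that replicates are separate animals, so p-values measure the spread between these libraries, which may be partly technical.

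Adenylyl cyclases are switched on by the stimulatory G protein alpha subunits, Gs in most cells and Golf in some neurons, and their product acts through protein kinase A, the Epac exchange factors and channels that bind cyclic nucleotides. The membrane enzymes differ in what else controls them. Adcy1, Adcy3 and Adcy8 are usually grouped as the calcium- and calmodulin-stimulated enzymes, Adcy5 and Adcy6 as the calcium-inhibited enzymes, and Adcy2, Adcy4 and Adcy7 as the enzymes that G beta gamma subunits stimulate. Adcy9 is the most divergent member and is little affected by forskolin. In the hippocampus, Adcy1 and Adcy8 are known for coupling calcium entry to cAMP during synaptic plasticity and memory.

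The libraries held 87612006 to 112993538 reads in genes, with a median of 91378465. Khdrbs3 was lower in the libraries labelled cKO in CamK (mean 278 against 373 counts per 1000000 reads, CPM) and in SST (93.8 against 130 CPM). In Grik it was higher in the libraries labelled cKO (414 against 336 CPM), which goes against the label, so cKO below means the label alone. These totals include exons outside any deleted part, which was not given. Summed markers of glutamatergic pyramidal cells were 5207 to 7603 CPM in CamK and Grik WT and 745 to 878 CPM in SST WT. Summed GABAergic markers were 4720 to 5327 CPM in SST WT and 41.2 to 135 CPM in CamK and Grik WT. Sst itself ranged widely over the SST WT libraries, from 159 to 1720 CPM, and was at most 10.6 CPM in CamK and Grik WT. CA1 markers were 625 to 905 CPM in CamK WT and 44.9 to 62.2 CPM in Grik WT, and CA3 markers were 84.4 to 97.9 and 396 to 461 CPM. The CamK libraries also held dentate granule cell markers, at 97.9 to 259 CPM in WT, and Grik WT held them at 139.9 to 149.7 CPM. None of the 12 marker lists had a gene at 0 in every library.

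Positions of the 9 genes are those of the GENCODE M21 annotation of GRCm38. Adcy1 (ENSMUSG00000020431) spans chr11:7063489-7178506 on the plus strand, and its merged exons cover 12522 bases. Adcy2 (ENSMUSG00000021536) spans chr13:68620043-68999541 on the minus strand, Adcy3 (ENSMUSG00000020654) chr12:4133103-4213525 on the plus strand and Adcy4 (ENSMUSG00000022220) chr14:55769057-55784095 on the minus strand. Adcy5 (ENSMUSG00000022840) spans chr16:35154877-35305738 on the plus strand and Adcy6 (ENSMUSG00000022994) chr15:98589973-98610076 on the minus strand. Adcy7 (ENSMUSG00000031659) spans chr8:88272403-88329962 on the plus strand, Adcy8 (ENSMUSG00000022376) chr15:64697084-64922296 on the minus strand and Adcy9 (ENSMUSG00000005580) chr16:4287529-4420498 on the minus strand. The merged exons of the other 8 genes cover 4211 (Adcy2) to 8152 bases (Adcy8), so reads were divided by exon length wherever the genes are compared with each other. Exons of Adcy2, Adcy3 and Adcy6 overlap exons of genes on the opposite strand, namely the antisense gene Gm35161, the centromere protein gene Cenpo and the antisense gene Gm29331. No source used here gives the strand setting of the counting. Reads of these pairs could not be told apart and the levels of these 3 genes are uncertain to that extent.

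RefSeq promoter windows, 300 bases long from 250 before to 50 after an annotated start, were matched by symbol for 7 of the 9 genes. The windows of Adcy1, Adcy7 and Adcy9 are shown as examples of genes that were highest in CamK (Adcy1), highest in SST (Adcy7) and lowest in SST (Adcy9). They are read 5′ to 3′ on the gene's strand in build GRCm38.p6, at chr11:7063183-7063482 (plus), chr8:88282742-88283041 (plus; the most upstream of 3 Adcy7 windows) and chr16:4420449-4420748 (minus). Capitals mark GC boxes (GGGCGG or its complement CCGCCC) and cAMP response element (CRE) core motifs (TGACG or CGTCA), searched on both strands.
Adcy1: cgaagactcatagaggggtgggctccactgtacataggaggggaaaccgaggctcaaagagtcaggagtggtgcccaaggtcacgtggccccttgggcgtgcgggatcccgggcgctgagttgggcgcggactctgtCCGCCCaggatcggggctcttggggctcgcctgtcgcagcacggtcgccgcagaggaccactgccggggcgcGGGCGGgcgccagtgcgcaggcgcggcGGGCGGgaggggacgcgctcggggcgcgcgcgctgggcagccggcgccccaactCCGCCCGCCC
Adcy7: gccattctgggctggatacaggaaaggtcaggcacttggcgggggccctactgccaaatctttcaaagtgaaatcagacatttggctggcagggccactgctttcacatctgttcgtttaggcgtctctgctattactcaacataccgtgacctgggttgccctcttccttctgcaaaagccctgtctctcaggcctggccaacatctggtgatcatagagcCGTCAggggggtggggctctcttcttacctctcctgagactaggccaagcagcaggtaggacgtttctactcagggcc
Adcy9: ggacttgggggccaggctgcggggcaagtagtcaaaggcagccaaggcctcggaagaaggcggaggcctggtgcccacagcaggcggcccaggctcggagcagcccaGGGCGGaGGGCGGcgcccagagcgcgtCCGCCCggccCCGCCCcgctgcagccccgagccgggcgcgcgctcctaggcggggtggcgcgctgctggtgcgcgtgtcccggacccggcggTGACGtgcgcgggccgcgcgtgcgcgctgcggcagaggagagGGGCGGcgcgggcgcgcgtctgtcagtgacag
The Adcy1 window had 74% G and C, 37 CpG dinucleotides and 5 GC boxes, and the Adcy9 window 78.3%, 42 CpG and 5 GC boxes. The Adcy7 window had 54.7% G and C, 6 CpG and no GC box. Over 32851 windows of the same length the median was 52.7% G and C and 7 CpG, and 35.7% of windows held a GC box. A CRE core motif was found once in the Adcy9 window, once in the printed Adcy7 window and nowhere in the Adcy1 window, and 20.8% of all windows held one. The full CRE (TGACGTCA), which contains the core motif, was in none of the 10 windows of these genes and in 1.79% of all windows. The last 30 bases of the printed Adcy9 window occur in a GENCODE M21 transcript of that gene, while those of the Adcy1 and Adcy7 windows do not, and the Adcy1 window ends before the GENCODE start of the gene. The motif matches describe letters in the windows and are not evidence of binding.

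Adcy1 made up the largest share of adenylyl cyclase RNA per exon length in every WT group, but the genes behind it differed between the populations. Its share of the summed CPM per kilobase of exon was 45.5% ± 5.68 (SD, n = 4) in CamK WT, 35.9% ± 3.93 (SD, n = 4) in SST WT and 28.5% ± 2.24 (SD, n = 4) in Grik WT. The CamK libraries overlapped neither other group, while the SST and Grik libraries overlapped in this share (exact permutation p 0.0571, adjusted p 0.0796). In CamK WT, Adcy2 followed with 18.3% ± 2.07, then Adcy9 with 12.3% ± 1.01 and Adcy5 with 11.8% ± 1.39 (SD, n = 4 each). Adcy9 and Adcy5 thus lay within each other's spread there. In Grik WT, Adcy9 with 19.6% ± 0.689 and Adcy2 with 19.2% ± 1.70 stood side by side, ahead of Adcy5 with 16.3% ± 0.431 and Adcy3 with 11.1% ± 0.532 (SD, n = 4 each). In SST WT, Adcy2 held 23.2% ± 2.98, Adcy5 16.9% ± 0.944 and Adcy3 10.7% ± 0.741, while Adcy9 came to 4.82% ± 0.528 (SD, n = 4 each). Adcy6 was between 2.87 and 4.37% in the 3 populations. Adcy8 made up 3.46% ± 0.967 in CamK WT, 2.50% ± 0.436 in SST WT and 0.675% ± 0.102 in Grik WT (SD, n = 4 each). Adcy4 stayed at or below a mean of 0.0988% and Adcy7 at or below 1.73%. Because Adcy1 has the longest exons, it took more of the reads than of the length-adjusted total, with 64.6% of Adcy reads in CamK WT, 54.6% in SST WT and 46.8% in Grik WT.

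**Figure D1:**
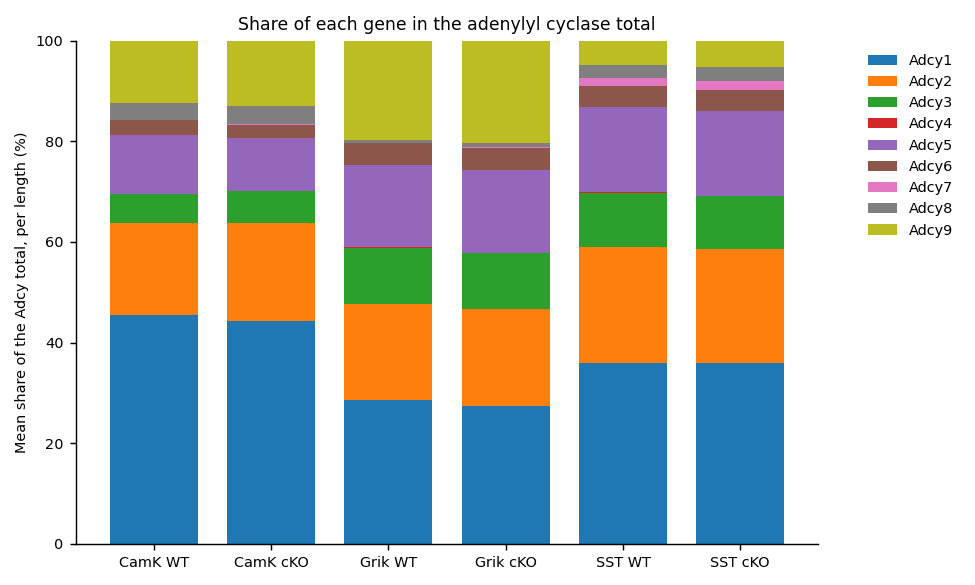
Mean share (%) of each of the 9 Adcy genes in the summed CPM per kilobase of exon, stacked for the 6 groups of 3 or 4 libraries. Adcy1 is the largest block in each group, from 27.5% in Grik cKO to 45.5% in CamK WT, and the Adcy9 block is 19.6% in Grik WT and 4.82% in SST WT.

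The summed length-adjusted level of all 9 genes was highest in CamK WT, at 97.8 ± 9.82 CPM per kilobase (SD, n = 4), against 72.5 ± 2.27 in SST WT and 66.6 ± 6.13 in Grik WT (SD, n = 4 each). Every CamK WT library was above every Grik and SST WT library. CamK WT was 1.47 times Grik WT and 1.35 times SST WT, each with an exact two-sided permutation p of 0.0286, the smallest that 4 against 4 libraries allow, and an adjusted p of 0.0446 over 39 tests. Grik and SST WT overlapped (ratio 0.919, exact permutation p 0.114, adjusted p 0.149). In bulk samples such as these, fewer cells of a type and less RNA per cell cannot be told apart. By class, the calcium- and calmodulin-stimulated enzymes held 54.7% ± 4.01 of the total in CamK WT, 49.1% ± 3.38 in SST WT and 40.3% ± 1.80 in Grik WT (SD, n = 4 each). Both CamK and SST WT libraries lay above all Grik WT libraries in that share, and CamK and SST overlapped (exact permutation adjusted p 0.149). The exact permutation tests did not pair libraries by replicate number. The calcium-inhibited enzymes held a lower share in CamK WT (14.6% ± 1.56) than in Grik WT (20.7% ± 0.455) and SST WT (21.1% ± 0.901), without overlap. This is a share of a total that was highest in CamK WT, and the levels themselves were close. Adcy5 had means of 11.4, 10.9 and 12.3 CPM per kilobase in CamK, Grik and SST WT. Those of Adcy6 were 2.80, 2.92 and 2.99. The G beta gamma-stimulated enzymes held 25.1% ± 2.95 in SST WT, above 18.4% ± 2.04 in CamK WT and 19.3% ± 1.71 in Grik WT (SD, n = 4 each). Of the 39 tests of shares, classes and totals between WT groups, 25 passed an adjusted p of 0.05, each at the smallest p possible, and these are the ones whose libraries did not overlap. Because they share that p, they pass or fail together: without Grik WT replicate 4 none of the 39 passed (lowest adjusted p 0.0506, exact permutation), the ratio of the CamK to the Grik total included. Leaving out any other single WT library left 23 to 25 past the threshold. The shares are parts of the same total and the classes add up the same genes, so these are not 25 separate findings. They include the share of Adcy4 in both comparisons with SST, a gene that passed the filter on low counts only through SST.

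Between WT populations, single genes were tested with edgeR's quasi-likelihood test, with Benjamini-Hochberg adjustment over the 18823 genes. The count of members that passed an adjusted p of 0.05 was 4 of 9 between CamK and Grik, where 42.0% of all genes passed. It was 6 of 9 between CamK and SST, where 60.1% passed, and 7 of 9 between Grik and SST, where 57.3% passed. Adcy4 is among the members called in both comparisons with SST. Because it passed the filter on low counts only through SST, the filter favoured its call there, and that call is no support for a difference. With 9 genes, counts this near the background say nothing particular about the family. Of all genes, 20.9% were higher in CamK and 21.1% higher in Grik, against 3 and 1 of the members. In the comparison of CamK with SST, 29.5% of all genes were higher in CamK and 30.5% higher in SST, against 3 and 3 members. In that of Grik with SST, 28.1% were higher in Grik and 29.2% higher in SST, against 1 and 6 members. The median absolute log2 fold change of the members was 0.42, 0.78 and 0.46 in the 3 comparisons, and over all genes it was 0.34, 0.54 and 0.51. The 3 comparisons share their WT libraries, so their results are not independent of each other.

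**Figure D2:**
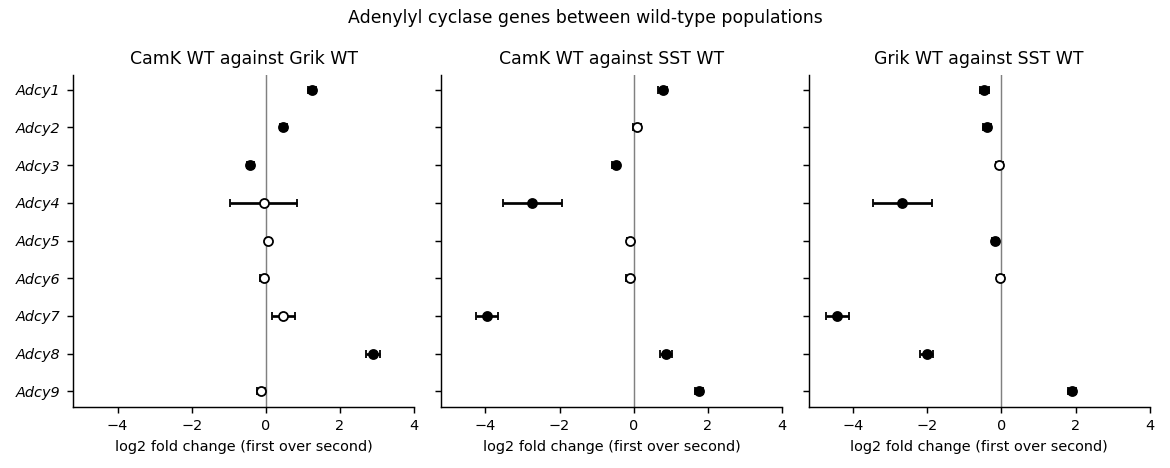
Log2 fold changes of the 9 Adcy genes between WT populations with their standard errors, from edgeR, for the 3 comparisons. The values run from -4.42 (Adcy7, Grik against SST) to 2.89 (Adcy8, CamK against Grik).

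Adcy1, the calmodulin-stimulated enzyme of memory-related plasticity, was highest in CamK and lowest in Grik. Its levels in CamK WT replicates 2, 3, 4 and 5 were 706, 629, 450.0 and 462 CPM. In Grik WT replicates 3, 4, 5 and 6 they were 235, 244, 261 and 209.6 CPM, and in SST WT replicates 1, 2, 3 and 5 they were 323, 337, 377 and 268 CPM. The 3 groups did not overlap, although the lowest SST library was close to the highest Grik library. Adcy1 was 2.37-fold higher in CamK than in Grik (log2 fold change 1.24, SE 0.12, edgeR adjusted p 7.45e-09). It was 1.72-fold higher in CamK than in SST (0.78, SE 0.12, edgeR adjusted p 3.07e-06) and 1.37-fold higher in SST than in Grik (log2 of Grik over SST -0.46, SE 0.12, edgeR adjusted p 0.00169). Within CamK WT, the order of Adcy1 across libraries was also the order of the summed dentate granule markers Prox1, C1ql2 and Dsp, which were 259, 206, 97.9 and 152 CPM in replicates 2, 3, 4 and 5. CamK WT replicate 4, with fewer dentate granule markers than any Grik library, had 450.0 CPM of Adcy1. In the CamK libraries labelled cKO the same markers ranged from 105 to 257 CPM while Adcy1 stayed between 539 and 560.0 CPM. The part of granule cell RNA in the CamK level was not tested.

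Adcy8, the other calmodulin-stimulated enzyme linked to synaptic plasticity, showed the largest ratio between the excitatory populations of any member. CamK WT replicates 2, 3, 4 and 5 had 21.8, 24.7, 33.8 and 27.9 CPM. Grik WT replicates 3, 4, 5 and 6 had 4.09, 3.38, 4.01 and 3.13 CPM, and SST WT replicates 1, 2, 3 and 5 had 12.05, 15.1, 14.2 and 17.7 CPM. All 4 CamK libraries lay above all SST libraries, which in turn lay above all Grik libraries. The level was 7.41-fold higher in CamK than in Grik (log2 fold change 2.89, SE 0.18, edgeR adjusted p 5.67e-12) and 1.84-fold higher in CamK than in SST (0.88, SE 0.16, edgeR adjusted p 6.36e-05). It was 4.04-fold higher in SST than in Grik (log2 of Grik over SST -2.01, SE 0.17, edgeR adjusted p 4.44e-10). In the CamK WT libraries Adcy8 ran in the opposite order to Adcy1, and it was highest in replicate 4, which also had the most CA1 markers (905 CPM) and the fewest dentate granule markers.

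Adcy3, the cyclase known from odorant signalling and neuronal primary cilia, was the only calcium- and calmodulin-stimulated member that was lowest in CamK. CamK WT had 33.8, 33.3, 35.7 and 35.9 CPM in replicates 2, 3, 4 and 5. Grik WT had 40.0, 44.8, 53.3 and 47.7 CPM in replicates 3, 4, 5 and 6, and SST WT had 47.3, 53.1, 46.1 and 47.3 CPM in replicates 1, 2, 3 and 5. The CamK libraries lay below all others, and the Grik and SST libraries overlapped. Adcy3 was 1.34-fold higher in Grik than in CamK (log2 of CamK over Grik -0.42, SE 0.09, edgeR adjusted p 0.000634) and 1.40-fold higher in SST than in CamK (log2 of CamK over SST -0.48, SE 0.09, edgeR adjusted p 7.44e-05). Grik over SST came to -0.06 on the log2 scale (SE 0.09; adjusted p 0.595 in edgeR). Glial markers were also lowest in CamK WT, with summed astrocyte markers at 9.01 to 21.0 CPM, against 50.9 to 60.9 CPM in Grik WT and 53.6 to 105 CPM in SST WT. Their part in the Adcy3 difference was not tested.

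**Figure D3:**
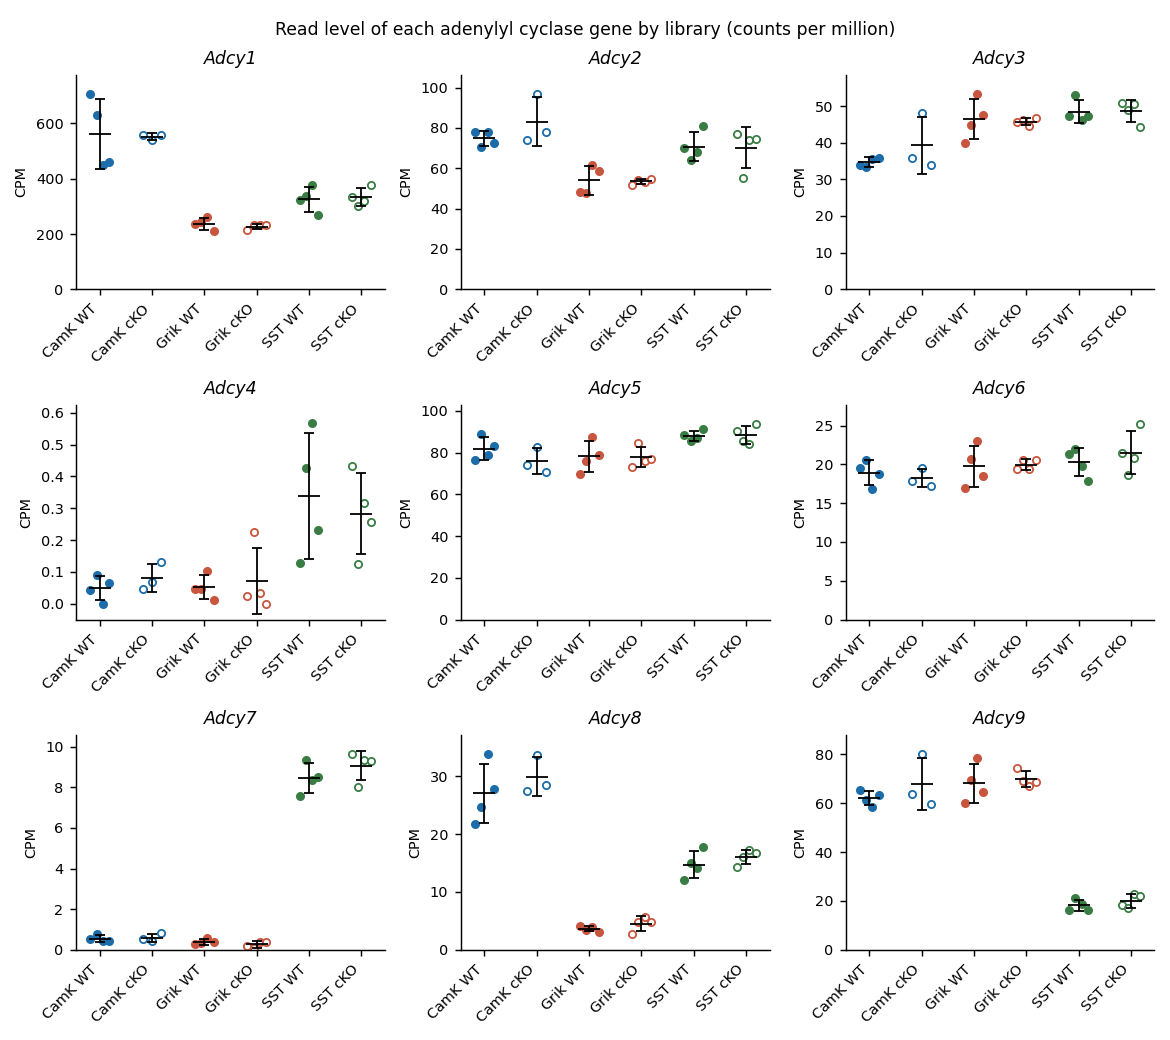
CPM of each Adcy gene in every library of the 6 groups, with a horizontal line at each group mean and whiskers of 1 SD; filled points are WT, open points are cKO, and each panel has its own linear axis. Adcy1 and Adcy8 are highest in CamK, Adcy9 is low in the SST libraries and Adcy7 is high only there.

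Adcy9, the divergent enzyme that forskolin hardly activates, separated both excitatory populations from SST. CamK WT had 65.3, 61.2, 58.6 and 63.5 CPM in replicates 2, 3, 4 and 5, and Grik WT had 60.0, 69.4, 78.5 and 64.7 CPM in replicates 3, 4, 5 and 6. SST WT had 16.4, 21.2, 18.8 and 16.4 CPM in replicates 1, 2, 3 and 5. The excitatory groups overlapped each other and no excitatory library came near an SST library. Adcy9 was 3.42-fold higher in CamK than in SST (log2 fold change 1.77, SE 0.11, edgeR adjusted p 4.44e-13) and 3.75-fold higher in Grik than in SST (1.91, SE 0.11, edgeR adjusted p 1.03e-13). CamK over Grik came to -0.13 on the log2 scale (SE 0.10; adjusted p 0.323 in edgeR). Pyramidal cell markers remained in SST WT at a summed 745 to 878 CPM, mostly from Camk2a (mean 731 CPM). Mean Slc17a7 was 83.3 CPM in SST WT, against 955 CPM in CamK WT and 1565 CPM in Grik WT. For Neurod6 the means were 23.6, 490 and 761 CPM in the same order. The part of pyramidal cell RNA in the SST level of Adcy9 was not tested.

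Adcy7, a G beta gamma-stimulated enzyme best known from immune cells, had the reverse pattern. SST WT replicates 1, 2, 3 and 5 had 7.55, 9.35, 8.38 and 8.50 CPM. CamK WT replicates 2, 3, 4 and 5 had 0.528, 0.797, 0.407 and 0.448 CPM, and Grik WT replicates 3, 4, 5 and 6 had 0.275, 0.313, 0.595 and 0.387 CPM. Every SST library lay far above every excitatory library, and the excitatory groups overlapped. Adcy7 was 15.4-fold higher in SST than in CamK (log2 of CamK over SST -3.95, SE 0.30, edgeR adjusted p 3.05e-11) and 21.4-fold higher in SST than in Grik (log2 of Grik over SST -4.42, SE 0.31, edgeR adjusted p 6.72e-12). The log2 fold change between CamK and Grik was 0.47 (SE 0.31, edgeR adjusted p 0.238). Microglia also express Adcy7, and the summed microglial markers were 6.50 to 8.01 CPM in SST WT, 3.38 to 15.8 CPM in Grik WT and 1.57 to 4.02 CPM in CamK WT. Endothelial markers were 6.26 to 24.4 CPM in SST WT, 0.656 to 1.12 in CamK WT and 1.28 to 2.83 in Grik WT. Pvalb, a marker of other interneurons, was 114 to 172 CPM in SST WT and at most 1.54 CPM in CamK and Grik WT. Lamp5 and Vip, listed with it, did not follow it. Lamp5 had means of 9.18 CPM in SST WT, 41.7 CPM in CamK WT and 32.7 CPM in Grik WT. For Vip the means were 0.610, 0.348 and 10.5 CPM in the same order. The part of microglial, endothelial or other interneuron RNA in the Adcy7 level was not tested.

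Adcy4, another G beta gamma-stimulated enzyme, was close to the detection limit in the excitatory populations. It gave 4, 8, 0 and 6 reads in CamK WT replicates 2, 3, 4 and 5 and 4, 4, 9 and 1 reads in Grik WT replicates 3, 4, 5 and 6. SST WT replicates 1, 2, 3 and 5 gave 15, 40, 56 and 23 reads. The 0 reads of CamK WT replicate 4 allow up to 0.0330 reads per 1000000 reads, from 3 reads and for counting error only. Unlike the CPM values, this bound was taken over all reads in genes and carries no TMM scaling. All SST libraries were above all CamK and Grik WT libraries. Since Adcy4 passed the filter on low counts only through SST, the filter favoured that direction, and the calls are no support for a difference. The fitted log2 values were -2.73 (SE 0.79, edgeR adjusted p 0.0045) for CamK over SST and -2.67 (SE 0.79, edgeR adjusted p 0.00559) for Grik over SST. Adcy4 is known from blood vessels, and endothelial markers moved with it. The summed level of Cldn5, Flt1, Pecam1 and Tek was 0.656 to 1.12 CPM in CamK WT, 1.28 to 2.83 CPM in Grik WT and 6.26 to 24.4 CPM in SST WT. The part of endothelial RNA in the Adcy4 level was not tested.

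**Figure D4:**
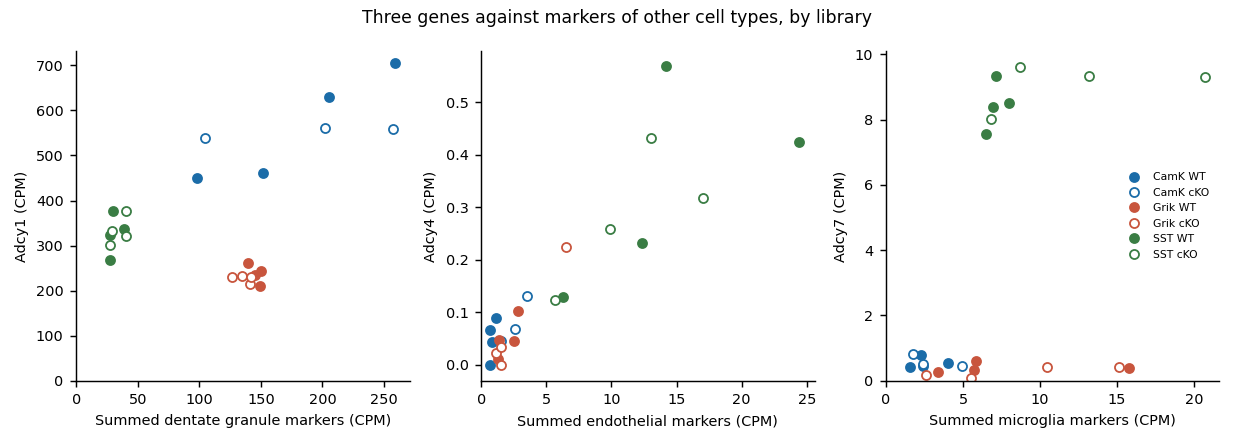
Adcy levels (CPM) against summed marker levels (CPM) of another cell type, 1 point per library, coloured by population, filled for WT and open for cKO. Adcy1 is set against dentate granule markers, Adcy7 against microglial markers and Adcy4 against endothelial markers. Adcy7 is at 7.55 CPM or more in the SST WT libraries; the part of the marked cell types in these levels was not tested.

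Adcy2, the G beta gamma-stimulated enzyme with the most RNA of its class per exon length, was lowest in Grik. Grik WT had 48.0, 47.7, 61.7 and 58.4 CPM in replicates 3, 4, 5 and 6. CamK WT had 78.1, 70.5, 78.1 and 72.7 CPM in replicates 2, 3, 4 and 5, and SST WT had 69.8, 64.0, 68.0 and 81.0 CPM in replicates 1, 2, 3 and 5. All Grik libraries lay below the other WT libraries, and CamK and SST overlapped. Adcy2 was 1.39-fold higher in CamK than in Grik (log2 fold change 0.47, SE 0.10, edgeR adjusted p 0.000695) and 1.31-fold higher in SST than in Grik (log2 of Grik over SST -0.39, SE 0.10, edgeR adjusted p 0.00243). Between CamK and SST it was 0.08 (SE 0.10, edgeR adjusted p 0.511). As a share of the length-adjusted Adcy total, Adcy2 passed the test in none of the 3 comparisons (exact permutation adjusted p 0.0796 to 0.512). Those tests did not pair libraries by replicate number. In replicates 2, 3 and 5 the share was 17.0, 16.3 and 19.2% in CamK WT and 20.8, 21.4 and 27.4% in SST WT.

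The calcium-inhibited enzymes Adcy5, which in the brain is best known from the striatum, and Adcy6 varied least in CPM. Adcy5 had a mean of 81.9 ± 5.58 CPM in CamK WT, 78.1 ± 7.41 CPM in Grik WT and 88.1 ± 2.45 CPM in SST WT (SD, n = 4 each). Grik WT ranged from 69.8 to 87.7 CPM and SST WT from 85.8 to 91.4 CPM, so the groups overlapped. Adcy5 passed the test between Grik and SST only, with 1.13-fold more in SST (log2 of Grik over SST -0.17, SE 0.07, edgeR adjusted p 0.0415). That call was lost without any 1 of 7 of the 8 libraries compared, the exception being Grik WT replicate 5, with adjusted p from 0.00996 to 0.202 over the 8 fits. Fitting the replicate number as a block also ended it (edgeR adjusted p 0.0946), as did testing without the filter on low counts (edgeR adjusted p 0.0810). Adcy6 had means of 19.0 ± 1.56, 19.8 ± 2.63 and 20.3 ± 1.83 CPM in CamK, Grik and SST WT (SD, n = 4 each) and passed no test (edgeR adjusted p 0.398 to 0.779). As shares of the Adcy total, itself highest in CamK WT, both genes were lower there than in the other WT groups, without overlap. Each of these comparisons had an exact permutation adjusted p of 0.0446, and of at least 0.0506 without Grik WT replicate 4.

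The genes whose levels ran most like each member over the 23 libraries were ranked by Pearson's r of log2 CPM among 10451 genes. As the points share population and genotype, these values are a description. Adcy9 ran most like Slit3, Galnt18 and Dkk3 (r 0.995, 0.995 and 0.994), and Adcy7 ran closely with Ptprm and Cort (r 0.992 each). Adcy8 ran most like Plekha7, Thrb and Cds1 (r 0.985, 0.983 and 0.982), and Adcy1 most like Plekha5, Tns1 and Tacc1 (r 0.954, 0.953 and 0.952). Adcy2 ran most like Ctsz, Penk and Cyb561 (r 0.925, 0.902 and 0.884), and Adcy3 most like Disp2, Tmem41b and Slc27a4 (r 0.928, 0.921 and 0.912). Adcy4 ran most like Col4a1, a basement membrane collagen, Slc9a8 and Scpep1 (r 0.891, 0.850 and 0.834). The likeness was weaker for Adcy5 (Tmco3, Rgl2 and Icmt, r 0.812, 0.806 and 0.798) and Adcy6 (Celsr3, Pcnx3 and Abcc5, r 0.756, 0.752 and 0.749), the members that varied least between groups. Among the members themselves, Adcy7 and Adcy9 ran most oppositely (r -0.974), and Adcy1 and Adcy8 ran together (r 0.868).

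Other genes of the cAMP pathway were counted in the same comparisons between WT populations. Of 49 listed genes 48 were tested, and 15 were higher in CamK and 10 higher in Grik, beside 20.9 and 21.1% of all genes. Against SST, 24 were higher in CamK and 17 lower, beside 29.5 and 30.5% of all genes. Between Grik and SST, 22 were higher in Grik and 15 lower, beside 28.1 and 29.2% of all genes. The soluble cyclase Adcy10 is among the genes counted as higher in CamK in both comparisons. Since it passed the filter on low counts through the CamK libraries, the filter favoured its call there, and that call is no support for a difference. The median log2 fold changes over the 48 genes were 0.03, 0.17 and 0.22, beside 0.01, -0.02 and -0.03 over all genes tested.

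Among the G protein subunits upstream of the cyclases, Gnas, which encodes Gs alpha, had 1611 ± 123 CPM in CamK WT, 2394 ± 122 CPM in Grik WT and 2100 ± 100.4 CPM in SST WT (SD, n = 4 each). It was lower in CamK than in Grik (log2 fold change -0.57, SE 0.07, edgeR adjusted p 1.37e-07). Gnal, which encodes the related Golf alpha, was higher in SST WT (309 ± 28.5 CPM) than in CamK WT (134 ± 27.6 CPM) and Grik WT (129 ± 13.3 CPM), with log2 values of -1.20 and -1.26 for CamK and Grik over SST (edgeR adjusted p 1.64e-09 and 6.88e-10). All 3 calmodulin genes, which carry the calcium signal to Adcy1 and Adcy8, were lower in SST than in both excitatory groups, beside 29.5% of all genes higher in CamK and 28.1% higher in Grik. Calm2 had 3705 ± 375 CPM in CamK WT, 2791 ± 279 CPM in Grik WT and 1506 ± 206 CPM in SST WT (log2 fold change 1.30, CamK over SST, edgeR adjusted p 2.01e-12). Calm2 was the only calmodulin gene that passed between CamK and Grik (0.41, SE 0.08, edgeR adjusted p 0.00035).

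Downstream of cAMP, protein kinase A subunits and inhibitors moved in both directions. The catalytic subunit gene Prkacb had 773 ± 105 CPM in SST WT against 533 ± 35.7 in CamK WT and 451 ± 21.8 in Grik WT (log2 of Grik over SST -0.78, edgeR adjusted p 4.53e-08). The inhibitor gene Pkig was higher in CamK WT (38.6 ± 2.25 CPM) than in Grik WT (15.2 ± 0.707 CPM) and SST WT (14.7 ± 0.390 CPM), with log2 fold changes of 1.34 and 1.39 (edgeR adjusted p 4.72e-10 and 6.16e-11). The regulatory subunit gene Prkar2b was also highest in CamK WT (59.5 ± 2.73 CPM), with log2 values of 0.87 over Grik and 0.70 over SST (edgeR adjusted p 2.16e-05 and 0.00013). Akap5, which anchors the kinase and cyclases at synapses, was low in Grik WT (80.2 ± 10.3 CPM) against 166 ± 10.04 CPM in CamK WT and 190 ± 15.2 CPM in SST WT (edgeR adjusted p 3.37e-09 and 4.03e-11). Akap7 had 59.7 ± 8.05 CPM in SST WT, 18.5 ± 1.83 in CamK WT and 10.3 ± 1.30 in Grik WT (log2 of Grik over SST -2.54, edgeR adjusted p 3.32e-13). Rapgef4, an Epac exchange factor, was higher in SST than in CamK and Grik (log2 -0.48 and -0.56, edgeR adjusted p 2.47e-07 and 1.66e-08). Rapgef3, the other Epac gene listed, was higher in CamK than in Grik and SST (log2 0.52 and 0.45, edgeR adjusted p 0.0291 and 0.0426).

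Phosphodiesterases, which break cAMP down, included some of the largest differences among the listed pathway genes, a list without Adcy1 to Adcy9. The calmodulin-stimulated Pde1c had 33.4 ± 3.93 CPM in SST WT, 2.87 ± 1.02 in CamK WT and 3.68 ± 0.407 in Grik WT, with log2 values of -3.54 and -3.18 over SST (edgeR adjusted p 4.47e-11 and 1.85e-10). Pde3a behaved likewise, with 7.95 ± 1.84 CPM in SST WT against 0.609 ± 0.306 in CamK WT and 0.654 ± 0.185 in Grik WT (edgeR adjusted p 1.42e-09 and 2.03e-09). Pde1a, of the same subfamily as Pde1c, was instead highest in Grik WT at 489 ± 34.1 CPM, against 346 ± 29.1 in CamK WT and 135 ± 12.1 in SST WT (log2 of Grik over SST 1.86, edgeR adjusted p 3.01e-15). Pde4b followed the same order with 130 ± 5.84, 91.1 ± 5.92 and 54.7 ± 1.59 CPM, while Pde4a was lowest in Grik WT with 90.5 ± 5.91 CPM, against 158 ± 4.81 in CamK WT and 190.1 ± 10.3 in SST WT. Pde8a was lower in CamK WT (0.629 ± 0.342 CPM) than in Grik WT (3.82 ± 1.07 CPM; log2 fold change -2.60, edgeR adjusted p 3.21e-06).

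Of the 6 genes of the CREB family and its coactivators, which carry the cAMP signal to transcription, all 6 were higher in CamK than in SST, beside 29.5% of all genes, and 5 of 6 higher in Grik than in SST, beside 28.1% of all genes. Crtc1 had the largest difference, with 109 ± 6.90 CPM in SST WT, 276 ± 9.48 in CamK WT and 335 ± 27.6 in Grik WT (log2 1.34 and 1.61 over SST, edgeR adjusted p 7.87e-15 and 2.15e-16). Crem was higher in CamK WT (25.1 ± 3.78 CPM) than in Grik WT (15.8 ± 1.46 CPM) and SST WT (16.1 ± 1.75 CPM). Adcy10, which bicarbonate activates, had mean levels of 0.161, 0.0231 and 0.0172 CPM in CamK, Grik and SST WT.

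The libraries labelled cKO were then compared with WT within each population, by label alone. None of the 9 members passed an adjusted p of 0.05 in edgeR in CamK, Grik or SST, and none had an unadjusted p below 0.05 in any of them. DESeq2 and limma-voom also called 0 of 9 in each. Over all genes 0.0106% passed in CamK, 0.0106% in Grik and 0.0106% in SST, so few calls were made on any gene, while 7.05, 4.88 and 5.85% of genes had an unadjusted p below 0.05. In CamK the members' log2 fold changes, cKO over WT, ran from -0.11 (Adcy5) to 0.69 (Adcy4), with a median of 0.13 beside 0.00 over all genes. In Grik they ran from -0.57 (Adcy7) to 0.44 (Adcy4), with a median of -0.01, and in SST from -0.25 (Adcy4) to 0.14 (Adcy9), with a median of 0.03. Standard errors were largest for Adcy4, from 0.67 to 0.91. No member's cKO and WT libraries were free of overlap in any population.

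**Figure D5:**
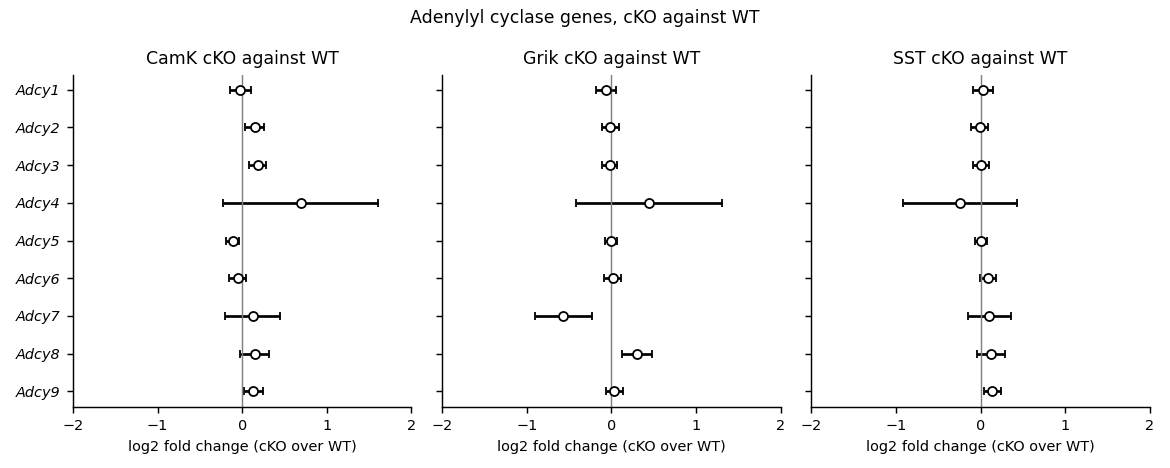
Log2 fold changes of the 9 Adcy genes between libraries labelled cKO and WT in CamK, Grik and SST, with standard errors from edgeR. The bars of the abundant genes lie close to 0 and the widest bars belong to Adcy4, the gene with the fewest reads.

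Adcy1 was nearly level between genotypes. In CamK the libraries labelled cKO had 560.0, 539 and 558 CPM in replicates 4, 5 and 6, within the WT range, and the log2 ratio to WT was -0.02 (SE 0.13; adjusted p 0.983 in edgeR). In Grik, cKO replicates 1, 2, 3 and 4 had 215, 232, 231 and 231 CPM (-0.06, SE 0.12, edgeR adjusted p 0.992). In SST, cKO replicates 3, 4, 5 and 7 had 332, 300.1, 320.3 and 378 CPM (0.03, SE 0.12, edgeR adjusted p 0.980). All 3 sets of cKO libraries overlapped their WT libraries.

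The lowest unadjusted p of any member in CamK was that of Adcy3, at 0.0814. Its cKO levels were 35.9, 48.2 and 33.8 CPM in replicates 4, 5 and 6, so replicate 5 alone was above the WT range (log2 fold change 0.18, SE 0.10, edgeR adjusted p 0.735). The same replicate was also the highest CamK library for Adcy2 (96.8 CPM) and Adcy9 (80.0 CPM), and it had the most CA1 (1125 CPM), astrocyte (31.5 CPM), oligodendrocyte (254 CPM), oligodendrocyte precursor (3.69 CPM) and microglial markers (4.95 CPM) of the CamK libraries. Their part in these levels was not tested. In Grik the lowest was that of Adcy8, at 0.0934, with 2.69, 4.83, 5.63 and 4.86 CPM in cKO replicates 1, 2, 3 and 4 (0.30, SE 0.17, edgeR adjusted p 0.992). Replicate 1 was below the WT range and the other 3 above it. In SST the lowest was that of Adcy9, at 0.197, with 18.1, 17.2, 22.8 and 22.0 CPM in cKO replicates 3, 4, 5 and 7 (0.14, SE 0.11, edgeR adjusted p 0.860). Replicates 5 and 7, the higher ones, also had more pyramidal (927 and 1017 CPM), oligodendrocyte (796 and 910.4 CPM) and astrocyte markers (105 and 134 CPM) than replicates 3 and 4, and the part of these in the Adcy9 level was not tested.

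Adcy9 and Adcy7 also stood apart between SST and the excitatory populations in the libraries labelled cKO, where no test between populations was run. Adcy9 had 63.8, 80.0 and 59.8 CPM in CamK cKO replicates 4, 5 and 6 and 74.5, 69.0, 67.0 and 68.8 CPM in Grik cKO replicates 1, 2, 3 and 4. Adcy7 had 9.62, 8.01, 9.33 and 9.32 CPM in SST cKO replicates 3, 4, 5 and 7, and 0.513, 0.450 and 0.815 CPM in CamK cKO replicates 4, 5 and 6. As in WT, no SST library overlapped an excitatory library for either gene. In Grik cKO replicates 1, 2, 3 and 4, Adcy7 had 0.164, 0.0896, 0.403 and 0.403 CPM. The first pair of these lay below the WT libraries and the second pair within the WT range (log2 fold change -0.57, SE 0.34; adjusted p 0.992 in edgeR). Adcy4 gave 2, 20, 3 and 0 reads in Grik cKO replicates 1, 2, 3 and 4, so its Grik value rests mostly on replicate 2, and with 1 library left out at a time it ran from -1.37 to 0.99 on the log2 scale. Adcy5 ranged from 70.7 to 82.6 CPM in CamK cKO, from 73.3 to 84.8 CPM in Grik cKO and from 84.1 to 93.6 CPM in SST cKO. Adcy2 ranged from 74.1 to 96.8 CPM in CamK cKO, from 51.8 to 54.9 CPM in Grik cKO and from 55.0 to 77.1 CPM in SST cKO. Both genes overlapped their WT libraries in each population, and Adcy6 stayed between 17.3 and 25.2 CPM over all libraries labelled cKO.

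In the libraries labelled cKO, Adcy1 held 44.2% ± 3.66 of the length-adjusted total in CamK cKO (SD, n = 3), 27.5% ± 0.691 in Grik cKO (SD, n = 4) and 36.0% ± 1.52 in SST cKO (SD, n = 4). Adcy9 held 12.98% ± 1.18, 20.4% ± 1.23 and 5.23% ± 0.560, and Adcy7 0.0890, 0.0597 and 1.83%, in the same order of populations. The Adcy total was 100.2 ± 6.57, 66.0 ± 1.34 and 73.7 ± 5.63 CPM per kilobase. None of the 39 exact permutation tests of shares, classes and totals between genotypes passed (lowest p 0.171, lowest adjusted p 0.997). The smallest p that the test could give was 0.0286 in each population.

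The difference of the cKO effects between populations was tested in the same edgeR fit. None of the 9 members passed in any pair of populations, with DESeq2 and limma-voom also at 0, and none had an unadjusted p below 0.05. Over all genes 0.00531% passed between CamK and Grik, 0% between CamK and SST and 0.0106% between Grik and SST. The lowest unadjusted p of a member was 0.150 for Adcy3 between CamK and Grik, 0.204 for Adcy3 between CamK and SST and 0.125 for Adcy7 between Grik and SST. Of the 48 other pathway genes tested, edgeR called none between genotypes in any population, where 3, 1 and 3 had an unadjusted p below 0.05 in CamK, Grik and SST.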

How the data were processed

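Polyadenylated RNA was measured by RNA sequencing in 23 libraries. The authors deposited whole-number counts of reads per gene, with STAR, Trimmomatic and GRCm38 named in the submitters' processing notes; the file headers show the 4 summary rows of STAR's counting. No source used here gives versions or the strand setting. The summary rows held 12.4 to 18.4% of reads and were left out. Of 45706 gene IDs, 45143 matched GENCODE M21, which gave exon lengths.

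Samples were grouped from their titles. Genes were kept by filterByExpr, scaled by TMM and fitted in edgeR 4.0.16 (R 4.3.3) with 6 group means, 17 residual degrees of freedom and a threshold of 0.05. CPM values, computed here, carry TMM scaling; shares divide CPM by merged exon length and sum over the 9 genes. Shares and totals were compared by two-sided exact permutation tests, 39 per family. At these depths counting error weighs most on Adcy4, and on Adcy7 outside SST. The edgeR step was tested on simulated data.

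The alternatives tried were scaling by relative log expression, testing without the filter, DESeq2 1.42.0, limma-voom (limma 3.58.1) with sample weights, populations fitted alone, read shares, longest-transcript length, the replicate number as a block, and each replicate left out. Same-numbered CamK and SST WT libraries deviated together with correlations of 0.101, 0.101 and 0.107 in replicates 2, 3 and 5. These are just past the limit of 0.1 for pairing, and the number is known from the titles only. For replicate 5 alone, the same-numbered libraries were each other's closest match. Replicates of a group differed beyond sampling noise in every pair (chi-square per degree of freedom at least 8.79). The members, the lists, the tests and the rule for neighbours (the 3 genes most correlated with each member among genes with a mean of at least 5 CPM) were chosen with earlier results of these data known. A neighbour chosen by that rule is not reported here.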

Additional observations from a re-analysis of the deposited data

Results flagged for a closer look

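Over 50 checks, of the 9 genes and the Adcy total in each of the 5 groups of 4 libraries, 4 found a library far from the other 3 by Dixon's test, where chance gives about 1 in 20 groups, or 2.5. Adcy1 in Grik cKO replicate 1 was 215 CPM, with the other libraries of that group at 230.9 to 231.6 CPM. Adcy4 in Grik cKO replicate 2 was 0.224 CPM, from 20 reads, with the others at 0 to 0.0345 CPM; that library also had the most endothelial marker RNA of the Grik libraries, at 6.49 CPM, and the part of that RNA was not tested. Adcy3 in SST WT replicate 2 was 53.1 CPM, with the others at 46.1 to 47.3 CPM. Of the SST WT libraries, that replicate also had the most astrocyte (105 CPM), oligodendrocyte (561 CPM) and endothelial markers (24.4 CPM). Their part in the Adcy3 level was not tested. Adcy2 in SST cKO replicate 4 was 55.0 CPM, with the others at 74.0 to 77.1 CPM. Among the SST cKO libraries, that replicate had the fewest oligodendrocyte markers (218 CPM) and the most GABAergic markers (5790 CPM). Their part in the Adcy2 level was not tested.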

How the results depend on the processing

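The number of members that passed the threshold stayed within 1.5 times its value for all comparisons and alternatives run, at 4 of 9 between CamK and Grik WT, 6 of 9 between CamK and SST WT, 6 or 7 of 9 between Grik and SST WT, and 0 between genotypes and for their differences. The replicate number as a block gave 4, 6 and 6, and the only call it ended was that of Adcy5 between Grik and SST (log2 -0.17, edgeR adjusted p 0.0946). CamK with SST WT was the only comparison where every same-numbered pair had a correlation past 0.1 (-0.153 to 0.255 elsewhere).

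Without division by exon length, the share of Adcy1 moved to 64.6, 46.8 and 54.6% in CamK, Grik and SST WT. Uncalled values changed sign for Adcy6 between Grik and SST (0.048 with the block) and for Adcy4 between genotypes, at -0.17 with the block and -0.88 with limma-voom in Grik and 0.21 with the block in SST. With each replicate left out, Adcy4 ran from -0.48 to 0.50 between CamK and Grik WT, from -1.37 to 0.99 between genotypes in Grik and from -0.52 to 0.13 in SST; Adcy6 from -0.12 to 0.019 between CamK and Grik and from -0.11 to 0.042 between Grik and SST; and Adcy3 from -0.13 to 0.014 between Grik and SST. The ratio of Adcy totals ran from 1.41 to 1.53 for CamK over Grik (exact permutation adjusted p 0.0506 without Grik WT replicate 4), from 1.30 to 1.39 for CamK over SST, and from 0.880 to 0.946 for Grik over SST (adjusted p 0.0464 without Grik WT replicate 5). Depth limits Adcy4 most, with 0 to 20 reads per library outside SST and a standard error of 0.67 to 0.91 (log2) between genotypes.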
